A study of Mus musculus with 2 samples.

Results

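The cells described here are thymic epithelial cells that expressed Aire and showed almost no transcripts of dividing cells. They came from total stroma of the mouse thymus, sequenced in 2 libraries with droplet single-cell 3' chemistry from 10x Genomics. A cell was taken as a member when it had at least 2 unique molecular identifiers (UMIs, each standing for 1 captured transcript) of Aire, at least 2 UMIs in the sum of the epithelial genes Epcam, Krt8, Krt18 and Cldn4, and at most 1 UMI in the sum of the division genes Mki67, Top2a, Cdk1, Ube2c, Nusap1 and Cenpf. The members were thus selected on measured values of these genes, which are given below as a description. To be eligible, a barcode needed 500 genes or more and 1000 UMIs or more, with mitochondrial UMIs making up 10% or less. In all, 348 of 11774 such cells were members. Library 1 held 203 of 3588 (5.66%, exact 95% interval 4.92 to 6.46) and library 2 held 145 of 8186 (1.77%, 1.497 to 2.08). These intervals, and all others given for shares, cover counting error only. The median member had 17715 UMIs in library 1 and 4364 in library 2. The rule counts UMIs, so depth enters the share: with every cell thinned to 1000 UMIs before gating, the shares were 0.669% and 0.367%.

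Both libraries carry the genotype E2F_M11, in which CRISPR-Cas9 removed 2 binding sites for E2F from the proximal promoter of Foxn1. Every cell in this report shares that deletion. The tissue was dissociated with Collagenase/Dispase and DNase I, and red cells and CD45-bearing cells were removed, the latter on magnetic beads. The labels give neither the age nor the sex of the mice and do not say whether the libraries are separate animals. Each p-value below comes from a fit to these libraries (n = 2) that removed the mean difference between them. It sets a class difference against the spread that was left, which is how unevenly the fitted classes differed from library to library. That spread was estimated over all fitted classes together and may be technical. Wild-type stroma was not analysed here, so the effect of the deletion was not measured. Members were compared with 3 other gated epithelial classes of the same libraries. Dividing Aire-expressing cells met the same rule with at least 2 UMIs of the division genes (132 and 105 cells). Ccl21a-high cells, the medullary epithelium that makes the chemokine CCL21, had no Aire UMI (278 and 303 cells). Cortical cells had no Aire UMI and carried Psmb11, Prss16 and Ccl25 transcripts (62 and 62 cells). Both of these classes were held to the same limit of at most 1 UMI of the division genes. The remaining epithelial cells without Aire (527 and 1288) entered the fit for its estimate of spread.

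AIRE is a nuclear regulator that lets medullary epithelial cells transcribe many genes whose products otherwise belong to other organs, such as hormones, milk proteins and digestive enzymes. Thymocytes that recognise these self-antigens are deleted or become regulatory T cells. FEZF2 drives a further set of such antigens, RANK and CD40 signal through NF-kB to mature these cells, and CD80 with MHC class II makes them efficient at presenting what they express.

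The series turns on the Foxn1 promoter, and the milk casein Csn2 was among the antigens of highest level in the members, so these promoters are shown, with those of 2 further caseins of lower level for comparison. Each line gives the 250 bases before the RefSeq gene start in GRCm38.p6, 5′ to 3′ on the strand of the gene, for the reference genome and not for the edited allele. Capitals mark the palindrome TTCNNNGAA, the letters bound by STAT factors, through which prolactin acts on caseins in the mammary gland. Foxn1 is at chr11:78386609-78386858 (minus strand), Csn2 at chr5:87699426-87699675 (minus strand), Csn1s1 at chr5:87665958-87666207 (plus strand) and Csn1s2a at chr5:87774200-87774449 (plus strand).
Foxn1: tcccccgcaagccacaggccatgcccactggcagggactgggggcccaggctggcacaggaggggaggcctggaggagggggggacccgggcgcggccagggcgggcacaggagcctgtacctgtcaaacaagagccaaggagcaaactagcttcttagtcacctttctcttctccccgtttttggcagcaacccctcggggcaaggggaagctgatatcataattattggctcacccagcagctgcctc
Csn2: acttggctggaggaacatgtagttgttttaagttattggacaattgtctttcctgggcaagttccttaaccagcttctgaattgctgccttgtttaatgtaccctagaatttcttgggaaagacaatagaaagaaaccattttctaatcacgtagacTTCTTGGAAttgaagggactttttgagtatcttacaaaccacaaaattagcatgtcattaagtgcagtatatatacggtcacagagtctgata
Csn1s1: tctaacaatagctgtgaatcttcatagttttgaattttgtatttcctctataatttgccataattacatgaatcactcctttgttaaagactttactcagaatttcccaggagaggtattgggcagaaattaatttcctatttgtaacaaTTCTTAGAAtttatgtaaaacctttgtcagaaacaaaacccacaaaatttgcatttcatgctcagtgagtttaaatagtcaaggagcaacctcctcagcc
Csn1s2a: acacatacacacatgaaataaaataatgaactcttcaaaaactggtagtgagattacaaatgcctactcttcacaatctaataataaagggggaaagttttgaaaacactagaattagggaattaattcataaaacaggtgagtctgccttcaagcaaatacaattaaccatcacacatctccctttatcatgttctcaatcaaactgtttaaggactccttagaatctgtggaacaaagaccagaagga
The E2F letters TTTNNCGC, searched on both strands, had 0 matches in this Foxn1 window and a match in 4.28% of 32851 promoters of the same length. The deleted sites may lie outside this window or differ from these letters, so 0 matches does not show that the promoter lacks E2F sites. The palindrome had 1 match in Csn2, beginning 93 bases before the start, and 1 in Csn1s1 at 100 bases. Csn1s2a had 0. Of 13 genes on the list of milk and saliva antigens with a promoter in the table, 4 held a match (Csn1s1, Csn2, Glycam1 and Pip), against 7.02% of all promoters. A match is a stretch of letters and not a measured binding site.

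The markers of the label were checked first. Aire, on chromosome 10 from 78030022 to 78043610 (GRCm38, minus strand), was part of the rule and stood at 608 CPM in library 1 and 690 CPM in library 2, where CPM is the number of a gene's UMIs per 1000000 UMIs of the class. Members had 2 to 58 Aire UMIs (median 8) in library 1 and 2 to 38 (median 3) in library 2. Exactly 2 Aire UMIs were found in 31 members (15.3%) and 55 members (37.9%). Epcam, also part of the rule, stood at 757 and 579 CPM, although 10 and 31 members had 0 Epcam UMIs and qualified on the keratins or Cldn4. Fezf2 (chromosome 14, 12342094 to 12348189, minus strand) and Cd80 (chromosome 16, 38455561 to 38496335, plus strand) were not part of the rule. Fezf2 stood at 496 and 476 CPM and Cd80 at 87.0 and 90.1 CPM, and the libraries lay close together for both. At 1000 UMIs per cell, Fezf2 was found in 26.1% of members (20.2 to 32.7) and 31.0% (23.6 to 39.2), against 0 of 494 fibroblasts (up to 0.607%) and 0.366% of 273 fibroblasts. Without thinning the shares were 84.2% and 65.5% in members and 0.607% and 0.733% in fibroblasts, whose median depth was 7906 and 3251 UMIs. The 4 markers were thus present in both libraries. A Pearson correlation of log2 CPM between the libraries over 10468 genes was 0.850 (across genes, which are not independent replicates).

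Foxn1, the master regulator of thymic epithelium, is the gene whose promoter was edited. In the members it stood at 140 CPM in library 1 and 157 CPM in library 2. These 3' tags lie outside the deleted sites and check nothing about the deletion. Ccl21a-high cells had 35.7 and 41.6 CPM, below both member values, and the difference was 2.15 on the log2 scale (SE 0.301, edgeR adjusted p = 0.0011). Cortical cells had 278 and 161 CPM, above the members in each library by less than the test could call (log2 fold -0.38, SE 0.284, adjusted p = 0.34). Dividing Aire-expressing cells had 122 and 124 CPM (0.39, SE 0.274, adjusted p = 0.54). In these sums the order of levels was cortical, member, dividing and Ccl21a-high, in which only the last stood apart from the members by the test. Ccl21a-high cells were gated to under 3 UMIs of Psmb11, Prss16 and Ccl25 and members were not. What that gate did to the Foxn1 difference was not tested. Without cells holding UMIs of another lineage the difference from cortical cells was 0.09 on the log2 scale, in the other direction.

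**Figure D1:**
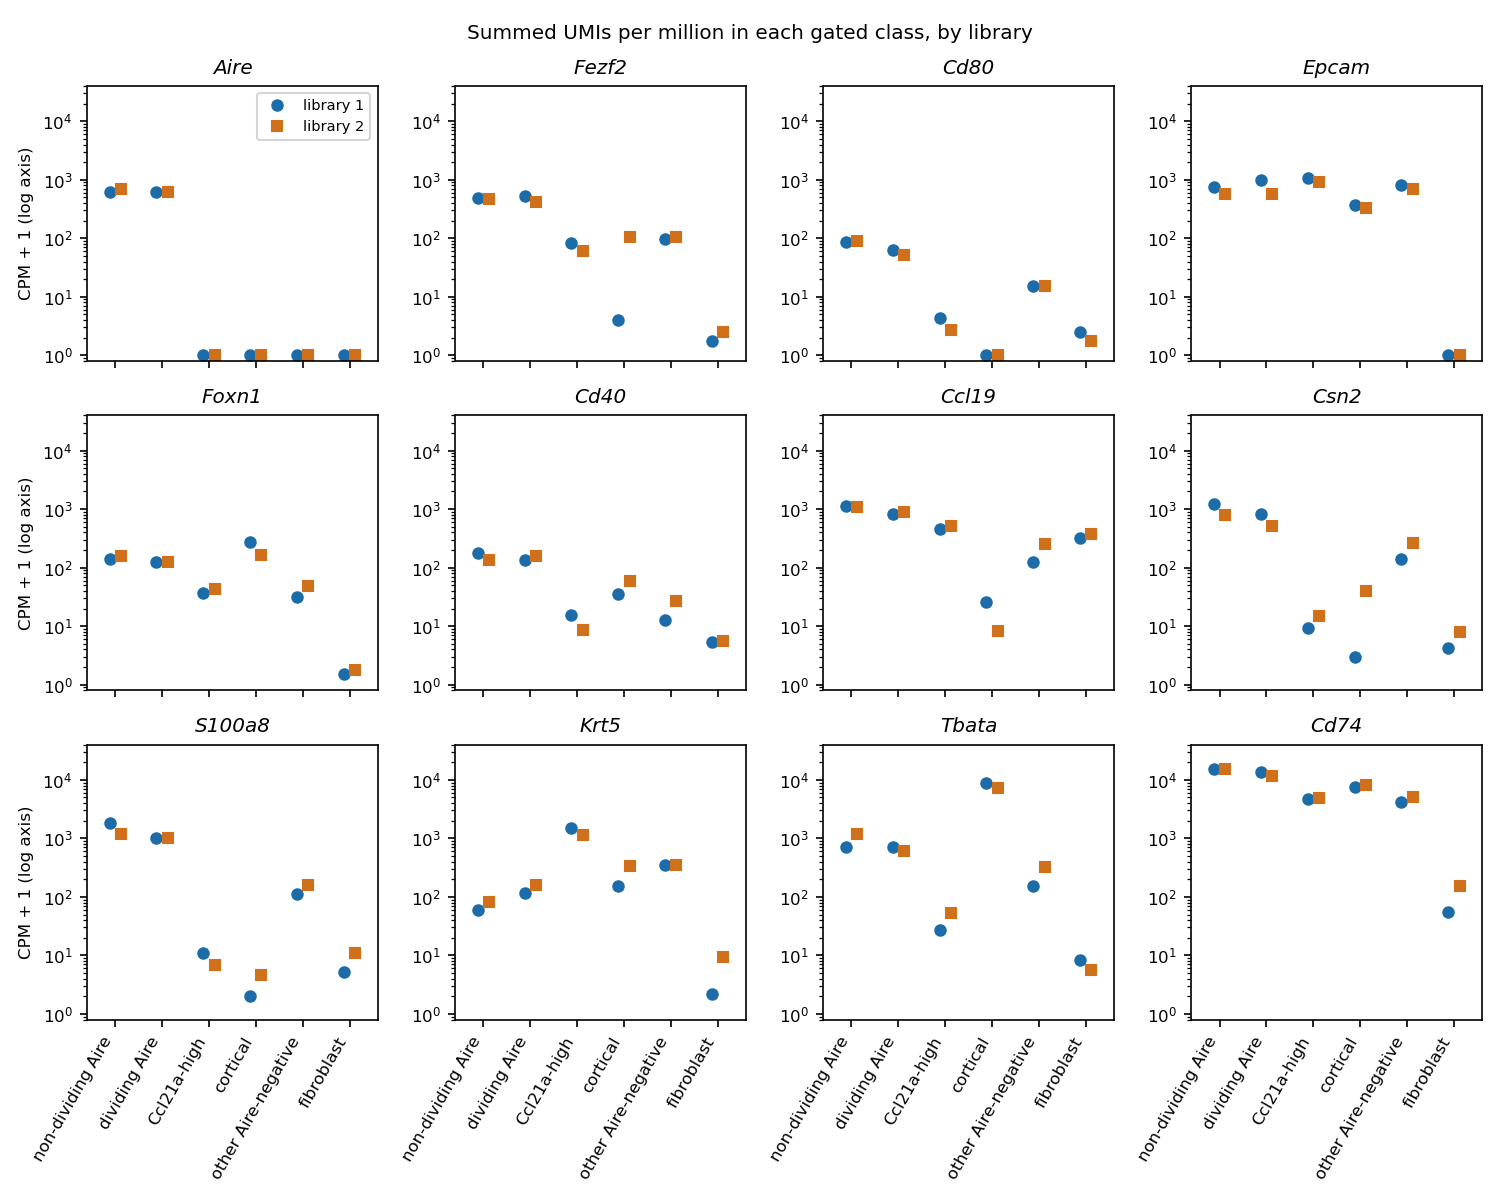
CPM + 1 (log axis) of 12 genes in 6 gated classes, 1 point for each library (circles library 1, squares library 2). Aire is 0 by definition in the 4 classes on the right of its panel. Fezf2 in the members is at 496 and 476 CPM, Krt5 at 59.7 and 80.2 CPM against 1526 and 1155 CPM in Ccl21a-high cells.

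The first comparison set the members against Ccl21a-high cells, the other large state of the medulla. The members were higher for antigens of other organs, for RANK and CD40 and their NF-kB relay, for MHC class II, for CD80 and ICOSL and for a set of chemokines. They were lower for basal keratins, for the interleukin Il7 and for early response genes of dissociation. Of 14420 genes tested with the quasi-likelihood test of edgeR, 5415 (37.6%) were called, where a call needed a p of 0.05 or less after Benjamini-Hochberg adjustment and 1 sign in both libraries: 3624 (25.1%) higher and 1791 (12.4%) lower in members. The median log2 fold of all genes was 0.15. The call counts below from this fit are to be read against those shares. List counts under other settings, in any comparison, have other shares over all genes, which are not given here. The gene lists were chosen with earlier results of these data known, so the list counts are a description. With every cell thinned to 1000 UMIs 1176 genes were called, and 1072 without cells holding at least 2 UMIs of another lineage. Of the genes named below for this comparison, B2m, Ccl19, Ccl20, Ccnd2, Cdkn1a, Cxcl14, Dll4, H2-Q6, Lgals9, Ltbr, Pla2g1b, Resp18, Tnfaip3, Top1 and Top2b were no longer called without those cells, with the direction kept. The calls of Defb19 and Fga were each lost in 4 alternatives.

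Markers of blood cells moved with this comparison. Summed over 10 macrophage and dendritic cell markers, members had 207 and 131 CPM and Ccl21a-high cells 9.88 and 9.16 CPM, and all 7 tested markers were called higher, among them Csf1r (16.1 and 11.6 CPM) and Mrc1 (56.5 and 38.0 CPM). Itgax, Xcr1 and Siglech were at 0 in members of library 2. B cell markers summed to 72.8 and 35.6 CPM against 2.28 and 10.8 CPM. Neutrophil markers summed to 115 and 41.3 CPM against 0.380 and 1.67 CPM, with Elane at 0 in both libraries and Csf3r and Retnlg at 0 in library 2. Thymocyte markers were not higher (119 and 365 CPM against 156 and 570 CPM). Of the members, 37.9% and 21.4% had at least 2 UMIs of the macrophage list. The list counts were therefore repeated without any cell with a macrophage or dendritic cell UMI, which left 95 and 102 members. Dividing Aire-expressing cells held such markers too: 87.4 and 168 CPM for the macrophage list, 42.0 and 65.6 CPM for B cells and 118 and 44.4 CPM for neutrophils. Fibroblasts had 4.68 and 6.92 CPM of the macrophage list. No doublet caller was used, and the source of these transcripts was not tested.

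Receptors of the RANK and CD40 pathway were higher in members. Cd40, which receives help from T cells, stood at 180 and 133 CPM against 14.4 and 7.49 CPM (log2 fold 3.93, SE 0.427, adjusted p = 3.5e-04). Tnfrsf11a, which encodes RANK, stood at 170 and 151 CPM against 76.0 and 35.8 CPM (1.72, SE 0.242). Tnfrsf11b, the soluble decoy for the RANK ligand, stood at 153 and 100 CPM against 8.36 and 3.33 CPM (4.51, SE 0.413). For each of these 3 receptors the 2 member values lay above both Ccl21a-high values. Downstream, the NF-kB inhibitor and target Nfkbia was at 2289 and 1797 CPM against 471 and 429 CPM (2.38, SE 0.150), Relb at 204 and 175 CPM against 89.0 and 74.1 CPM (1.42), and Nfkb2 at 181 and 201 CPM against 102 and 80.8 CPM (1.25). Of 19 genes on this list, 12 were called higher and 2 lower, with a median log2 fold of 1.25. The lower genes were the lymphotoxin receptor Ltbr (11.8 and 15.7 CPM against 27.8 and 32.5 CPM, -0.95) and Tnfaip3, a brake on NF-kB (18.8 and 18.2 CPM against 36.9 and 39.96 CPM, -0.84). Without cells holding a macrophage UMI the count was 11 higher and 2 lower.

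Transcription factors split in both directions. Of 20, 10 were higher and 8 lower, with a median log2 fold of 0.63. Fezf2 was higher by 2.94 (SE 0.688, adjusted p = 0.011), against 81.7 and 60.8 CPM in Ccl21a-high cells. The interferon regulatory factors Irf8 (309 and 440 CPM against 69.2 and 65.8 CPM, 2.65) and Irf4 (41.0 and 48.0 CPM against 4.94 and 1.67 CPM, 3.69) were higher, and so was Spib, an ETS factor (109 and 94.3 CPM against 49.0 and 45.8 CPM, 1.31). Id1, an inhibitor of basic helix-loop-helix factors, was lower (19.0 and 17.4 CPM against 241 and 139 CPM, -3.18). With cells thinned to 1000 UMIs, 2 of 16 were higher and 7 lower, so the balance of the list turned at that depth. Among 25 proteins reported to bind AIRE, 1 was higher and 4 lower (median -0.17). That 1 was Sirt1, a deacetylase (316 and 236 CPM against 27.0 and 29.97 CPM, 3.498, SE 0.201), while the DNA-unwinding enzymes Top1 (-0.46) and Top2b (-1.20) were lower.

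Antigens of other organs were higher in members than in Ccl21a-high cells in each of the 4 lists, which were chosen with earlier results of these data known. The casein Csn2 (chromosome 5, 87692624 to 87699630, minus strand) stood at 1226 CPM in library 1 and 796 CPM in library 2, against 8.36 and 14.2 CPM in Ccl21a-high cells. The difference was 6.79 (SE 0.720, adjusted p = 3.1e-04). Csn1s1 and Csn1s2a, its neighbours on the chromosome, were far lower and rested on library 1: Csn1s1 was at 31.3 and 1.65 CPM and Csn1s2a at 85.7 and 3.31 CPM. Csn1s2a was at 0 in Ccl21a-high cells and at least 83.7-fold higher in members, taking 3 counts over the group as the floor. Of 16 milk and saliva genes 11 were tested, 5 were higher and 0 lower, and 7 of the 11 had 0 counts in Ccl21a-high cells. A gene with 0 counts there passed the low-count filter through other classes, so such counts describe the genes detected and not the whole list. The median log2 fold was 7.79 as fitted and 4.11 with those genes at their lower bound.

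Hormones were higher as a group: 18 of 19 tested were called higher and 0 lower, out of 22 on the list, with a median of 7.42 (6.59 with 1 gene at its bound). Calcb, a calcitonin gene-related peptide, stood at 422 and 427 CPM against 2.28 and 0.832 CPM (8.04, SE 0.464). Calca, which encodes calcitonin and a related peptide, stood at 498 and 380 CPM against 3.04 and 1.67 CPM (7.67, SE 1.22). Cga, the shared subunit of the pituitary glycoprotein hormones, was at 49.3 and 142 CPM and at 0 in Ccl21a-high cells, at least 92.0-fold higher. The gut and brain peptides Nts (155 and 384 CPM) and Gal (129 and 250 CPM) were higher in library 2 than in library 1, whereas the pancreatic and gut peptides Pyy (332 and 67.8 CPM) and Sst (122 and 0.827 CPM) were higher in library 1. Sst thus rested on library 1.

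Of 27 genes of liver, gut and pancreas 25 were tested, 20 were higher and 0 lower (median 6.22, or 5.26 with 5 genes at their bound). Reg3g, an antibacterial lectin of the gut, stood at 455 and 671 CPM against 24.3 and 39.96 CPM (4.36, SE 0.776). Its close relative Reg3b could share reads with it, which makes the split between them uncertain. Fabp9, a fatty acid binding protein of testis, stood at 168 and 384 CPM against 1.90 and 5.83 CPM (6.42, SE 0.538). Saa3, an acute phase protein, stood at 161 and 150 CPM against 4.18 and 5.83 CPM (5.21, SE 1.29), and Apoa4, an intestinal apolipoprotein, at 118 and 39.7 CPM against 1.52 and 0.832 CPM (6.22). Apoa2 (64.5 and 190 CPM) and the pancreatic colipase Clps (25.4 and 18.2 CPM) were also higher, Clps at least 30.2-fold. Fga, a fibrinogen chain, was called at 27.9 and 1.65 CPM, mainly from library 1. The liver protein Crp was not called (18.8 and 15.7 CPM against 30.03 and 15.8 CPM). Of 12 tested genes of nerve, eye, muscle and germ cells, 8 were higher and 0 lower (median 4.81), and 8 further genes of that list of 20 were not tested. Pcp4, a calmodulin regulator of Purkinje cells, led them in level at 264 and 283 CPM against 3.42 and 2.50 CPM (6.83, SE 0.503), followed by Resp18, an endocrine secretory protein (183 and 168 CPM against 37.2 and 10.8 CPM, 2.94).

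Secreted defence proteins were among the most abundant of all these genes. The calgranulin S100a8 (chromosome 3, 90668978 to 90670035, plus strand) stood at 1840 and 1209 CPM against 9.88 and 5.83 CPM (7.71, SE 0.366, adjusted p = 2.0e-05). Its partner S100a9 was at 449 and 323 CPM against 2.28 and 11.7 CPM (6.32, SE 0.938). Lyz2 was at 695 and 822 CPM against 8.74 and 13.3 CPM (6.35), and Lyz1 at 369 and 549 CPM against 2.66 and 1.67 CPM (7.68). Lyz1 and Lyz2 are near-identical lysozymes that the counting could split, so their separate values are uncertain. Slpi, a protease inhibitor, was at 216 and 18.2 CPM and rested on library 1. The whey protein relative Wfdc18 was not called (1486 and 828 CPM against 3869 and 3900 CPM, adjusted p = 0.18). Of 14 genes 9 were higher and 0 lower (median 5.35). S100a8, S100a9, Lyz2, Camp and Ngp are also made by neutrophils or macrophages, whose markers are given above. Without cells holding a macrophage or dendritic cell UMI the counts were 9 of 14 for defence proteins, 14 of 18 for hormones, 14 of 18 for liver, gut and pancreas and 2 of 5 for milk and saliva, each with 0 lower. Without cells with at least 2 UMIs of thymocyte, macrophage, B cell or fibroblast markers, which left 39 and 19 members, they were 6 of 13, 5 of 10, 8 of 10 and 1 of 2. The 25.1% of all genes called higher belongs to the main fit and is not the share to set beside the counts of these settings.

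The MHC class II pathway was higher in members. Cd74, the invariant chain, stood at 15610 and 15450 CPM against 4727 and 4900 CPM (1.90, SE 0.101, adjusted p = 2.1e-05). The class II chains H2-Aa (6093 and 6317 CPM against 2076 and 2218 CPM, 1.74) and H2-Ab1 (6291 and 5124 CPM against 2601 and 2566 CPM, 1.35) were higher, as were Ctss, the cathepsin that trims the invariant chain (238 and 215 CPM against 28.5 and 26.6 CPM, 3.24), and H2-Oa, a modulator of peptide loading (328 and 494 CPM against 49.0 and 52.4 CPM, 3.17). Of 14 genes 12 were higher and 0 lower (median 1.76). Macrophages also express this pathway, and with any cell holding a macrophage UMI left out 10 of 14 were higher and 0 lower. Of 16 genes of MHC class I, 5 were higher and 1 lower, with a median of 0.26. B2m, the light chain, was higher (5512 and 4483 CPM against 3349 and 2819 CPM, 0.90), and so was the immunoproteasome subunit Psmb10 (395 and 482 CPM against 147 and 155 CPM, 1.74). The heavy chain H2-K1 was not called (3093 and 2744 CPM against 2977 and 2749 CPM). H2-Q6 was lower (-0.57), but it resembles other genes of its family and its counts are uncertain.

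Among costimulatory and checkpoint ligands, 6 of 13 tested were higher and 1 lower (median 0.89). Cd80, the ligand of CD28, was at 3.42 and 1.67 CPM in Ccl21a-high cells, so the difference was 5.17 (SE 0.307, adjusted p = 5.9e-05). Icosl, the ligand of ICOS, stood at 120 and 130 CPM against 11.02 and 8.32 CPM (3.82, SE 0.238). Cd86, the other ligand of CD28, was also higher (24.4 and 14.9 CPM against 1.52 and 2.50 CPM, 3.61). Cd83, which holds MHC class II at the surface, was at 29.2 and 26.5 CPM against 0.760 and 2.50 CPM (4.56). Lgals9, which encodes galectin-9, was lower (36.2 and 49.6 CPM against 211 and 178 CPM, -2.02). Without cells holding a macrophage UMI 5 of 13 were higher and 1 lower.

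Of 22 tested chemokines and cytokines 12 were higher and 3 lower (median 1.51). Ccl17 and Ccl22, the ligands of CCR4 on mature thymocytes, were at 92.1 and 139 CPM and at 52.2 and 65.3 CPM, against 1.14 and 1.67 CPM and 1.52 and 0.832 CPM (6.59 and 5.58). Ccl20, the ligand of CCR6, was at 161 and 133 CPM against 1.90 and 2.50 CPM (6.38). The CXCR3 ligand Cxcl9 was at 1044 and 838 CPM against 116 and 126 CPM (3.17), and Ccl19, a ligand of CCR7, at 1132 and 1092 CPM against 453 and 513 CPM (1.42). Lower in members were Il7, the survival cytokine of thymocytes (35.1 and 37.2 CPM against 195 and 193 CPM, -2.24), Cxcl14 (32.7 and 14.1 CPM against 250 and 109 CPM, -2.64) and Cxcl12 (12.3 and 31.4 CPM against 82.9 and 96.6 CPM, -1.999).

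The basal programme was lower in members. Krt5 stood at 59.7 and 80.2 CPM against 1526 and 1155 CPM (-4.10, SE 0.319) and Krt14 at 190 and 203 CPM against 1337 and 1064 CPM (-2.41). The basal regulator Trp63 stood at 34.5 and 67.8 CPM against 227 and 226 CPM (-2.02). Of 16 genes 9 were lower and 3 higher (median -1.16). The 3 higher genes were the claudins Cldn7 (501 and 256 CPM against 8.74 and 11.7 CPM, 5.47) and Cldn3 (3.75), which seal tight junctions, and the simple keratin Krt19 (2.01). Early response genes of dissociation were lower, 9 of 10 called, with sums of 3098 and 3151 CPM against 8697 and 8125 CPM.

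Genes of the cell cycle and of E2F moved unevenly although both classes were gated for few division transcripts. Cyclin-dependent kinase inhibitors were higher, 5 of 7 called and 0 lower (median 2.35): Cdkn1c was at 476 and 314 CPM against 25.9 and 35.8 CPM (3.94, SE 0.488), Cdkn2a at 78.2 and 56.2 CPM against 1.52 and 4.16 CPM (5.01), and Cdkn1a at 239 and 108 CPM against 38.8 and 39.96 CPM (2.35). The Cdkn1a difference was 0.398 and not called without cells holding UMIs of another lineage. Ccnd2, a D cyclin that these proteins oppose, was higher as well (520 and 580 CPM against 150 and 102 CPM, 2.33). In the E2F and Rb network, 4 genes of 21 rose and 3 fell (median -0.17). Tfdp1, the dimer partner of E2F factors, was higher (72.3 and 76.9 CPM against 19.8 and 17.5 CPM, 2.18), its relative Tfdp2 was lower (33.5 and 24.8 CPM against 69.2 and 78.2 CPM, -1.11), and E2f2 was higher (12.6 and 26.5 CPM against 4.56 and 10.8 CPM, 1.58). E2f6 was called lower (-1.37) and kept that call in 2 of 10 alternatives. E2f1, E2f3 and Rb1 were not called. Of 20 S-phase genes 1 was higher and 3 lower (median -0.04).

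Over all genes with a level of at least 10 CPM in either class, listed or not, the largest positive fitted folds were of genes at 0 in Ccl21a-high cells. Members held the defensin Defb19 at 196 and 4.13 CPM (at least 190-fold higher, almost wholly library 1), the Paneth cell defensin Defa30 at 98.0 and 54.6 CPM, the pancreatic phospholipase Pla2g1b at 78.2 and 105 CPM (at least 108-fold), BC037156 at 95.3 and 49.6 CPM (at least 107-fold), the survival gene Bcl2a1a at 86.2 and 73.6 CPM (at least 106-fold), the atrial myosin chain Myl7 at 63.2 and 127 CPM (at least 101-fold) and the neutrophil granule gene Ngp at 74.98 and 55.4 CPM (at least 89.7-fold). Defa30 and Bcl2a1a belong to families of near-identical genes, so which copy was counted is uncertain. In the other direction stood Fst, the activin antagonist follistatin (5.36 and 7.44 CPM against 223 and 210 CPM, -4.95), Scx, a transcription factor of tendon (2.68 and 6.61 CPM against 158 and 110.7 CPM, -4.91), and Tagln, an actin-binding protein (9.11 and 34.7 CPM against 602 and 438 CPM, -4.69). Mgat5b, Sobp, Adamts17 and Adamts19 followed, each under 3 CPM in the members.

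**Figure D2:**
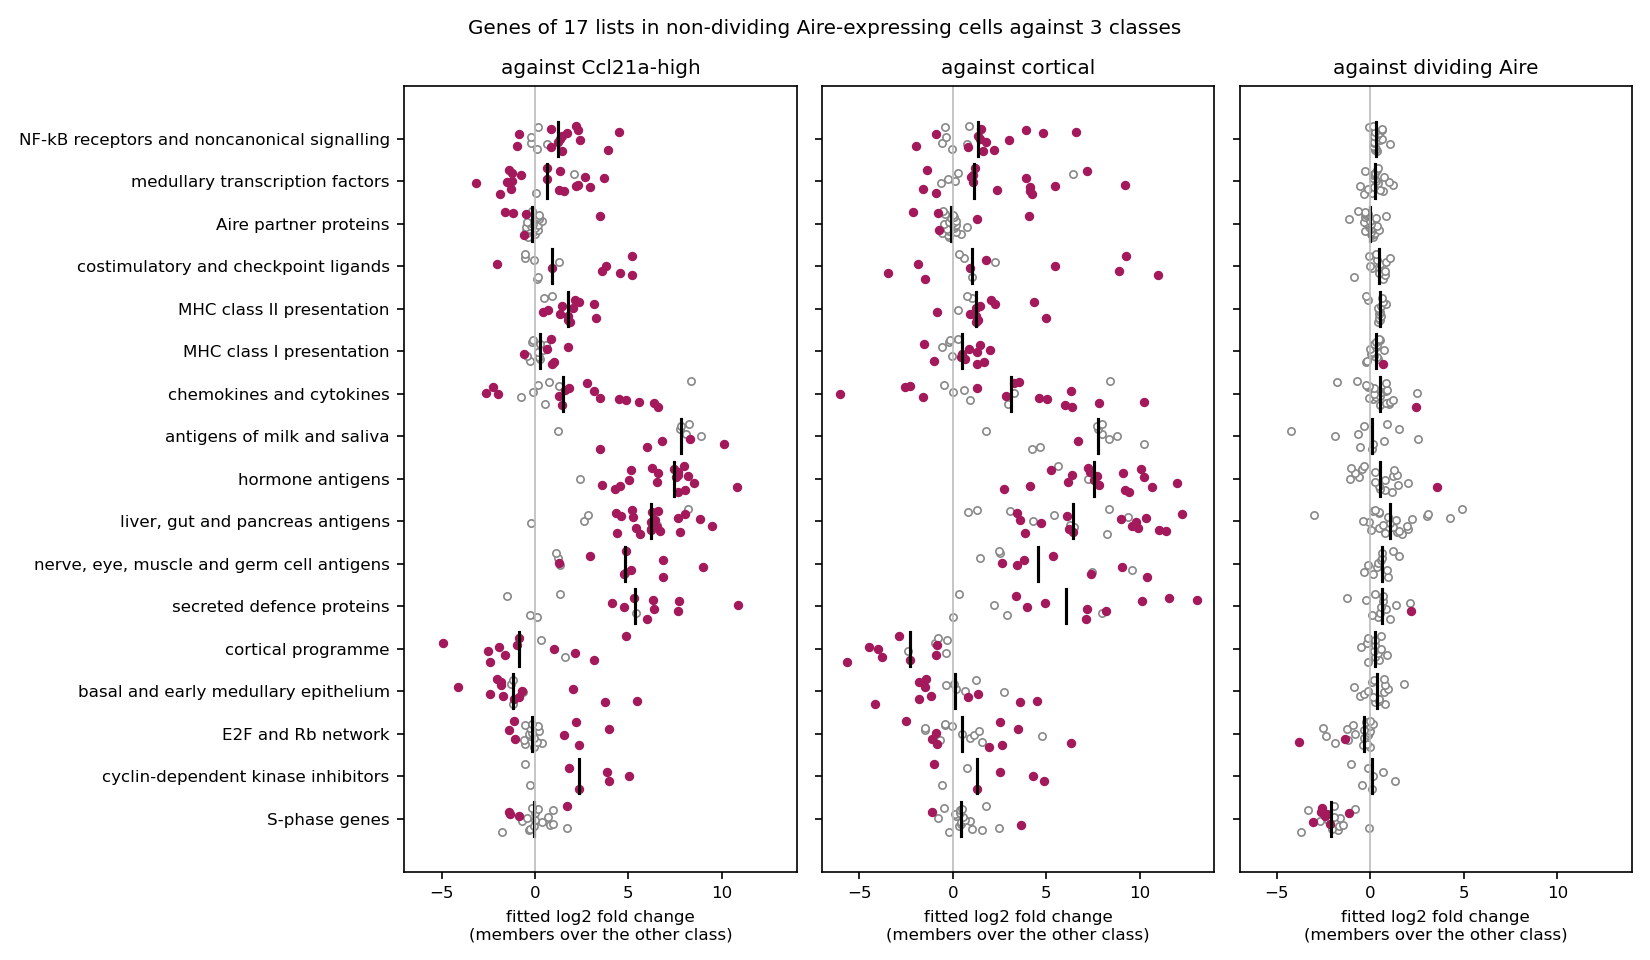
Fitted log2 fold change of the members over Ccl21a-high, cortical and dividing Aire-expressing cells for each tested gene of 17 lists. Filled points passed the test, open points did not, and the black bar is the list's median. Fitted values of genes at 0 in the other class depend on the prior count and are no bounds. Hormone antigens lie to the right in the first panel, where 18 of 19 were called, and near 0 in the third, where 1 of 19 was called.

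The second comparison set the members against cortical epithelium, which selects early thymocytes. Of 14420 genes 4664 (32.3%) were called, 2917 (20.2%) higher and 1747 (12.1%) lower in members, with a median log2 fold of 0.23 over all genes. Psmb11, Prss16 and Ccl25 defined the cortical class and were not tested. The cortical programme was lower in members: 8 of 13 genes were called lower and 0 higher (median -2.31). The cathepsin Ctsl, which makes class II peptides in the cortex, stood at 183 and 288 CPM against 16650 and 9953 CPM (-5.63, SE 0.502), Pax1, a factor of the pharyngeal pouch, at 17.7 and 25.6 CPM against 548 and 579 CPM (-4.49, SE 0.194), and the endocytic receptor Ly75 at 40.4 and 35.6 CPM against 878 and 604 CPM (-4.02). Tbata, a thymic epithelial gene, had an intermediate level. It stood at 699 and 1210 CPM in members, below the 8766 and 7271 CPM of cortical cells (-2.89, SE 0.352) and above the 25.9 and 51.6 CPM of Ccl21a-high cells (4.87, SE 0.402). Dll4, the Notch ligand, was likewise below cortical cells (8.57 and 7.44 CPM against 62.6 and 28.6 CPM, -2.31) and above Ccl21a-high cells (1.14 and 0.832 CPM, 3.14). The gate held Ccl21a-high cells to under 3 UMIs of Psmb11, Prss16 and Ccl25 and set no such limit on members, where Ccl25 was at 727 and 496 CPM. The part of that gate in the higher Tbata and Dll4 of members was not tested.

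Of 22 chemokines and cytokines 11 were higher and 4 lower. Among the lower genes, Cxcl12, a ligand of CXCR4, was at 12.3 and 31.4 CPM against 1550 and 1377 CPM (-6.01, SE 0.487), Il7 at 35.1 and 37.2 CPM against 296 and 197 CPM (-2.54) and the stem cell factor Kitl at 13.7 and 28.1 CPM against 113 and 107 CPM (-2.31). Among the higher genes, Ccl19 (SE 0.425 on the log2 scale, adjusted p = 8.1e-05) stood at 24.8 and 7.15 CPM in cortical cells, and Cxcl9 differed by 6.35 (cortical 10.9 and 21.5 CPM).

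For presentation, Cd74 differed by 1.26 (cortical 7642 and 8008 CPM) and H2-Aa by 1.27 (2937 and 3272 CPM), and 10 of 14 class II genes were higher. The 1 lower gene was H2-DMa, which loads class II peptides (167 and 160 CPM against 356 and 354 CPM, -0.85), not called in thinned cells (-0.291). Of 16 class I genes 9 were higher and 2 lower. B2m was higher by 1.30 and its activator Nlrc5 by 2.01, while the immunoproteasome subunit Psmb9 was lower (233 and 163 CPM against 788 and 604 CPM, -1.55). Cd80 and Cd86 were at 0 in cortical cells, which makes Cd80 at least 37.6-fold and Cd86 at least 9.45-fold higher in members. Cd83 went the other way, at 29.2 and 26.5 CPM against 415 and 329 CPM (-3.48, SE 0.428), and so did Cd274, which encodes PD-L1 (57.3 and 45.5 CPM against 178 and 172 CPM, -1.49). Thus Cd83 was above Ccl21a-high cells and below cortical cells.

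Of the NF-kB list 11 of 19 were higher and 2 lower, among them Tnfrsf11a (170 and 151 CPM against 6.95 and 7.15 CPM, 4.83, SE 0.388) and Cd40 (2.19, cortical 33.8 and 57.2 CPM). Fezf2 was higher by 4.13 (SE 0.858), but the cortical libraries differed widely, at 2.98 and 104 CPM. Spib was at 0 and 3.58 CPM in cortical cells, and 12 of 20 transcription factors were higher and 3 lower. Antigens of hormones (17 of 19), of liver, gut and pancreas (15 of 25), of nerve, eye, muscle and germ cells (7 of 12) and defence proteins (9 of 14) were called higher with 0 lower. In that order, 8, 14, 5 and 3 of the tested genes had 0 counts in cortical cells. Such genes passed the low-count filter through other classes and could hardly be called lower. With them at their lower bound the list medians were 5.28, 3.89, 3.03 and 4.46, against 7.55, 6.44, 4.59 and 6.05 as fitted. Milk and saliva genes, 7 of them at 0 in cortical cells, gave 1 call of 11, Csn2, at 1.99 and 39.3 CPM there (6.71, SE 0.815). Saa3 was not called (cortical 0.993 and 232 CPM). The low library 1 and high library 2 values of cortical cells for Fezf2, Csn2 and Saa3 went with a median depth of 13182.5 and 1894.5 UMIs, and their part in these results was not tested. Macrophage markers were also higher in members, 6 of 7 called, and without cells holding one the counts were 12 of 18 for hormones, 12 of 18 for liver, gut and pancreas and 10 of 14 for defence proteins. Thymocyte markers, at 119 and 365 CPM against 575 and 511 CPM, were lower for 3 of 11 genes, and 4 of 10 early response genes were higher.

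Of the inhibitors of cyclin-dependent kinases 4 of 7 were higher and 1, Cdkn2d, was lower, a call made in 0 of 10 alternatives. Cdkn1c stood at 5.96 and 42.9 CPM in cortical cells (4.90) and Cdkn2a at 0.993 and 14.3 CPM (4.31), the latter not called in thinned cells (2.226) or without cells holding UMIs of another lineage (1.906). Cdkn1a (1.33) turned to -0.58 without cells holding UMIs of another lineage. Of 21 E2F and Rb genes, 5 were higher and 4 lower: Ccnd2 (2.63) and Tfdp1 (2.52) were higher, Tfdp2 was lower (cortical 227 and 161 CPM, -2.48), and Cdk4, the kinase that D cyclins activate, was lower (46.1 and 50.4 CPM against 111.2 and 147 CPM, -1.12). The Cdk4 difference was -0.702 and not called in thinned cells, and -0.002 without cells holding UMIs of another lineage. Over all genes, the potassium channel Kcnk2 was lower (2.68 and 2.48 CPM against 360 and 279 CPM, -6.63, SE 0.837), and Gm11290 and Ccdc68 had 0 counts in the members, at least 119-fold and 67.9-fold lower. Among genes at 0 in cortical cells, S100a9 was at least 179-fold higher in members, Fabp6, an ileal bile acid binding protein (369 and 294 CPM), at least 150-fold, Dppa3, a germ line gene (272 and 334 CPM), at least 123-fold, and Ptgds, a prostaglandin synthase (263 and 143 CPM), at least 100-fold.

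The third comparison asked which genes separate members from Aire-expressing cells in division. Few did: 195 of 14420 genes (1.35%) were called, 56 (0.388%) higher and 139 (0.964%) lower in members, with a median of 0.10 over all genes. This count ran from 11 (cells thinned to 1000 UMIs) to 558 (no low-count filter). The split was made on 6 division genes, so lower values of other division genes are a description of the gate. The dividing cells were also deeper, with medians of 26883.5 and 9131 UMIs against 17715 and 4364 in members. Exactly 2 division UMIs were found in 41 of 132 and 22 of 105 of them. At least 10 S-phase UMIs were found in 40.15% and 40.95% of them. How many of them were in division, and what this did to the count, was not tested. Plk1 (0.268 and 0.827 CPM against 22.3 and 28.1 CPM), Ccna2 (0.536 and 2.48 CPM against 37.0 and 58.1 CPM) and Pclaf (4.82 and 13.2 CPM against 160 and 180 CPM) were lower. Of 20 S-phase genes 7 were lower and 0 higher, and they summed to 213 and 259 CPM in members against 932 and 974.7 CPM. Not all members were free of them: 19 members of library 1 and 2 of library 2 had at least 10 S-phase UMIs. Ccne2, the cyclin of S-phase entry (2.68 and 0.827 CPM against 36.2 and 32.5 CPM, -3.81), and Cdk4 (46.1 and 50.4 CPM against 135 and 136 CPM, -1.37) were the 2 lower genes of the E2F and Rb network.

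A few effector genes were higher in members than in dividing cells. Ccl17 stood at 92.1 and 139 CPM against 24.2 and 20.6 CPM (2.45, SE 0.318, adjusted p = 0.018). Lyz1 stood at 369 and 549 CPM against 96.0 and 123 CPM (2.16, SE 0.312, adjusted p = 0.022), and Cga at 49.3 and 142 CPM against 6.401 and 8.75 CPM (3.56, SE 0.324, adjusted p = 0.013). B2m was higher by 0.66 (SE 0.122, adjusted p = 0.044, kept in 7 of 11 alternatives). Those 4 were the only genes of the 17 pathway lists called higher. Over all genes, the monoamine transporter Slc18a2 (41.8 and 38.0 CPM against 4.73 and 1.25 CPM, 3.75), the hormone oxytocin, Oxt (222 and 77.7 CPM against 9.74 and 5.62 CPM, 4.53), and Gpnmb (11.3 and 78.5 CPM against 1.39 and 1.88 CPM, 4.34) were among the 8 called genes of largest positive fold. The call of Scg2 (99.4 and 0.827 CPM) rested on library 1. Beyond these, the S-phase genes, Ccne2 and Cdk4, 0 genes of the pathway lists were called. In dividing cells Fezf2 (518 and 414 CPM), Cd80 (61.5 and 49.99 CPM), Csn2 (820 and 507 CPM) and Cd74 (13480 and 11810 CPM) had adjusted p between 0.091 and 0.94. A p above the threshold does not show that the levels are alike. In simulated counts for this comparison 96.0% of genes changed by a log2 fold of 2 were recovered, and 9.50% of those changed by 1. The simulation gave every gene the same spread and changed only genes of higher level. These shares therefore do not hold for genes of lower level or wider spread.

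The 84 antigen genes of the 4 organ lists were next counted cell by cell. A median of 9 of them was found per member in library 1 and 5 in library 2, with at most 29 and 23. At 1000 UMIs per cell the mean was 3.14 and 2.68 antigen genes per member, against 0.162 and 0.353 in Ccl21a-high, 0.194 and 0.500 in cortical 2.46 and 2.06 in dividing Aire-expressing cells, and 0.987 and 1.34 in the remaining epithelium without Aire. At that depth 88.2% and 88.3% of members had at least 1, against 14.4% and 25.1% of Ccl21a-high cells, 76.5% and 74.3% of dividing cells and 39.3% and 56.1% of the remaining epithelium. Summed over the 84 genes, the remaining epithelium had 4354 and 5403 CPM and members 6791 and 5670 CPM, so in library 2 those sums lay close. By list, liver, gut and pancreas genes were higher in the remaining epithelium in both libraries (3354 and 3204 CPM against 1930 and 2004 CPM in members). Milk and saliva genes were higher there in library 2 only (390 and 1496 CPM against 1512 and 988 CPM). Hormones (433.5 and 494 CPM against 2643 and 1997 CPM) and the nerve, eye, muscle and germ cell list were lower there.

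Breadth of expression differed between a single cell and a pool of cells. At 1000 UMIs the median member had 593 and 592 genes, the lowest of the 6 classes in both libraries. Ccl21a-high cells had 609.5 and 615, dividing Aire-expressing cells 623.5 and 628, and cortical cells 642.5 and 632.5. Pools of 62 such cells turned the order round: members had an expected 9572 and 9293 genes, Ccl21a-high cells 8443 and 8755, and cortical cells 8365 and 8680. A wide pool was not particular to the members: dividing Aire-expressing cells had 9466 and 9268 and the remaining epithelium without Aire 9433 and 9438. A single transcript, Malat1, a nuclear noncoding RNA, took 5.67% and 4.23% of member UMIs, and Gm42418, which overlaps ribosomal RNA, 3.22% and 2.79%. With these, mitochondrial and ribosomal protein genes left out, members had 697 and 711 genes, still the lowest of the 6 classes, and pools of 44 cells held 9400 and 9183 genes against 8489 and 8678 for Ccl21a-high cells. Genes found in under 5% of a class's cells gave 20.8% and 19.0% of member UMIs, against 15.7% and 17.6% of Ccl21a-high UMIs, 18.4% and 18.1% in dividing cells and 20.3% and 20.1% in the remaining epithelium. Pools need many cells to show this: for pools of 19 members the values were 5262 and 5178 genes against 4984 and 5109. Without cells holding UMIs of another lineage those pools held 5125 and 5034 genes against 4947 and 4968. Pools of 10 from such members had 3419 and 3339 genes, against 3380 and 3371 in Ccl21a-high cells, so in library 2 the order turned. In pools of 10 taken from all cells it had turned there as well (3460 against 3473 genes), while library 1 had 3505 against 3407. With n = 2 libraries these values have no test.

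**Figure D3:**
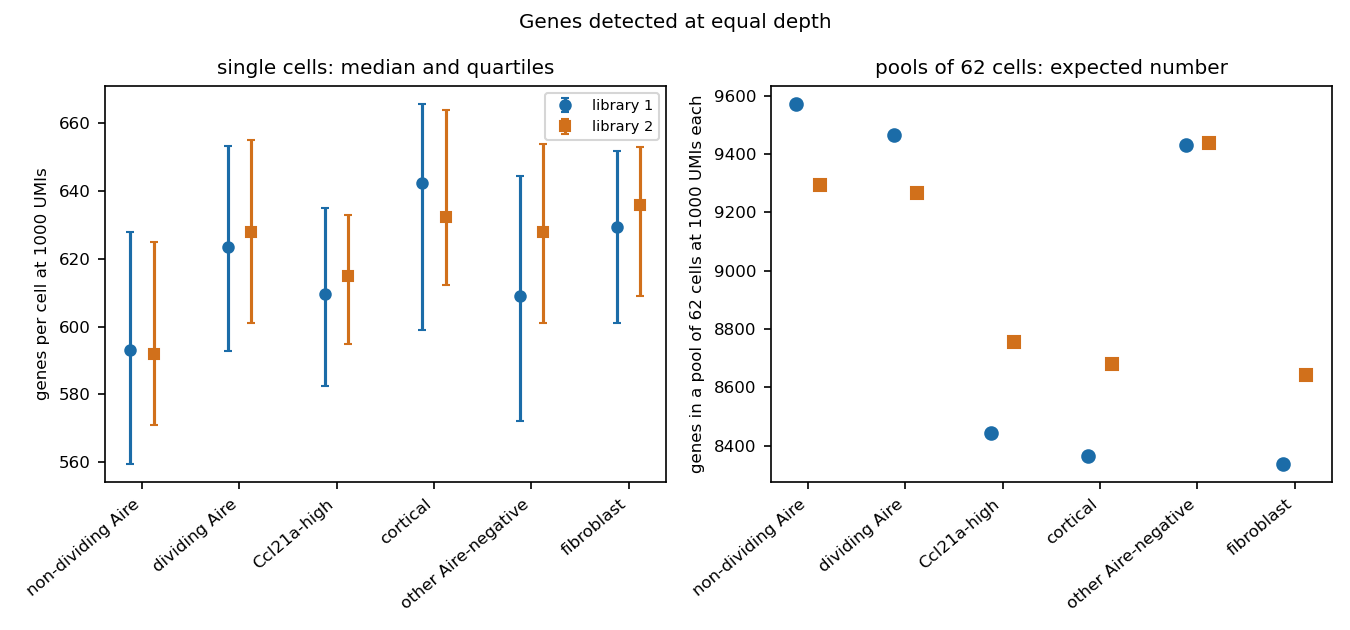
Left, genes per cell at 1000 UMIs, median with quartiles over cells. Right, the expected number of genes in a pool of 62 such cells. Circles are library 1 and squares library 2. The members have the lowest medians (593 and 592) on the left and 9572 and 9293 genes on the right, above Ccl21a-high and cortical cells in each library.

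Members differed from one another in which antigens they held. Csn2 was shared widely: at 1000 UMIs it was found in 54.2% (47.1 to 61.2) and 39.3% (31.3 to 47.8) of members, against 0 of 494 fibroblasts (up to 0.607%) and 1.10% of fibroblasts. Without thinning the shares were 86.7% and 73.1% in members and 2.63% and 2.20% in fibroblasts. Some other antigens were spread less evenly over the members. S100a8 was found in 48.3% and 36.6% of members at full depth, and the 10% of members richest in it held 68.0% and 85.0% of its UMIs. Calca was in 33.5% and 31.7% of members, with 87.9% and 88.7% of UMIs in that top 10%. Oxt was in 4.43% and 2.07%, the lung secretoglobin Scgb1a1 in 10.8% and 7.59%, and the osteocalcin gene Bglap in 8.87% and 6.90%, so each of these 3 was detected in a small share of the members. Scgb1a1 in library 1 had 99.6% of its UMIs in the top 10% of members, a value near 100% for any gene found in so few cells. S100a8 had a higher level than Csn2 in each library, yet at 1000 UMIs it was found in fewer members, 29.1% and 29.7%.

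**Figure D4:**
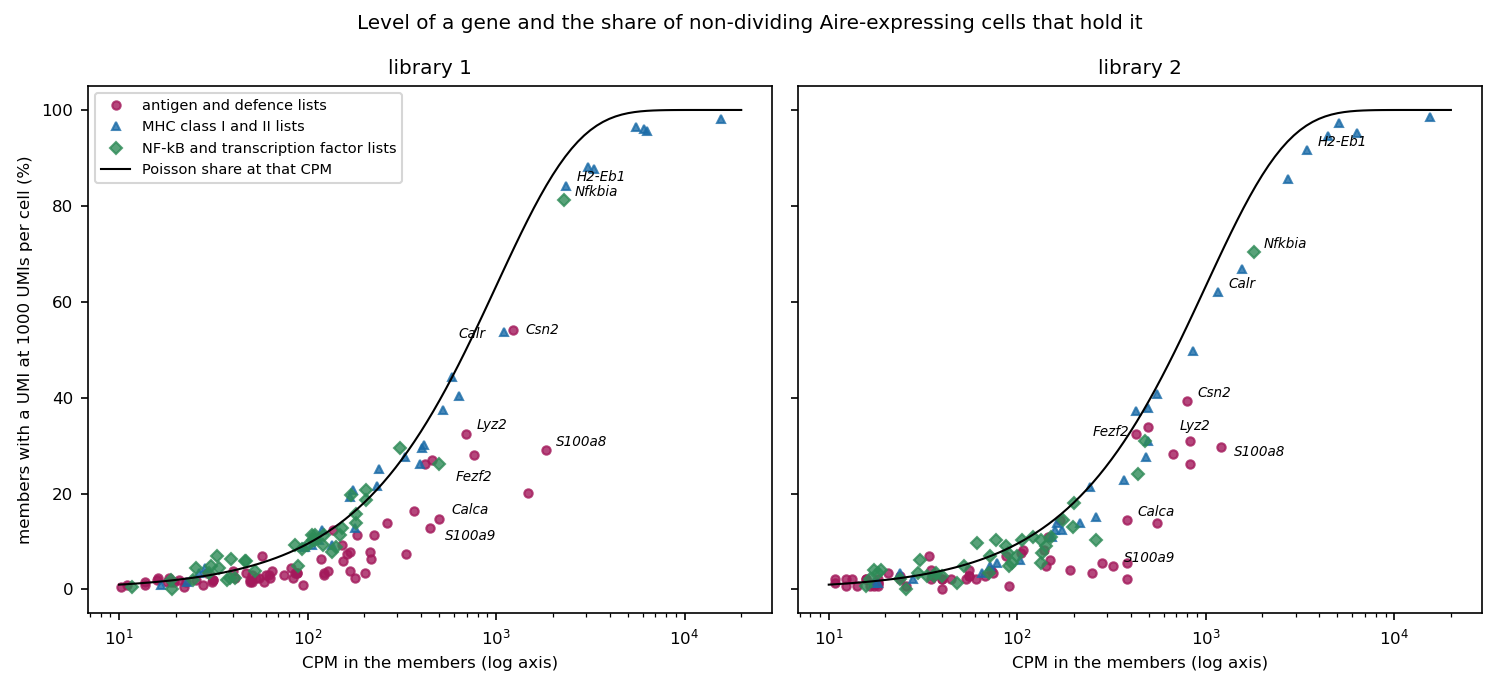
Share of members with at least 1 UMI at 1000 UMIs per cell against the level in members (CPM, log axis), for listed genes at 10 CPM or more, in each library. The line is the share a Poisson draw at that level would give. Csn2 is at 54.2% and 39.3%, and S100a8, at a higher level, at 29.1% and 29.7%, both below the line in each library.

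Some antigens were found in the same cells. Of 21 members with Saa2 in library 1, 17 also had Saa3, and of 10 in library 2, 8 did, while Saa3 was in 24.1% and 15.9% of all members. Of 54 and 13 members with S100a9, 48 and 12 had S100a8, which 48.3% and 36.6% of all members had. Apoa4 was found in 12 of 19 and 6 of 18 members with Apoa1, against 26.6% and 10.3% overall. The pairs Saa2 with Saa3 and S100a8 with S100a9 are near copies or partners from 1 gene cluster. Among chemokines, 27 of 30 and 13 of 17 members with Ccl22 had Cd40 (70.0% and 45.5% overall). Deeper cells hold more of every gene, and these shares were not matched for depth.

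Members were also split within each library at the median Aire share of UMIs. The parts differed in depth in library 2 (median 2303 UMIs in the Aire-higher and 7353 in the Aire-lower part, 17022 and 18842.5 in library 1). The rule used Aire, so the split is a description. Its floor of 2 Aire UMIs gives shallow cells a high Aire share, so the split is in part one of depth. Of 16 class I genes 9 were lower in the Aire-higher part of both libraries and 0 higher, whereas of 14 class II genes 5 were higher and 0 lower. Markers of other cells moved with the split: 7 of 10 thymocyte genes and 3 of 3 macrophage genes (C1qb, C1qc and Mrc1) were higher in the Aire-higher part of both libraries, and 3 of 4 fibroblast genes were lower. Mrc1 was at 64.4 against 49.8 CPM and 66.3 against 23.7 CPM. Their part in the values given here was not tested. H2-K1 was at 3017 against 3159 CPM and 2224 against 3008 CPM, and H2-D1 at 3164 against 3407 CPM and 1297 against 1682 CPM. Cd40 was at 208 against 156 CPM and 170 against 115 CPM, Csn2 at 1397 against 1080 CPM and 1236 against 573 CPM, and Tbata at 941 against 491 CPM and 1560 against 1033 CPM, each higher where Aire was higher. Cdkn1c, the p57 inhibitor, went the other way and by a wide margin: it was at 140 CPM in the Aire-higher and 764 CPM in the Aire-lower part of library 1, and at 31.9 and 457 CPM in library 2. Over all 265 listed genes with at least 5 UMIs in each part, 67 were higher in both libraries, 80 lower in both, and 118 went apart.

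At the edge of the rule, cells with 2 Aire UMIs were set beside those with 1. Fezf2 was at 185 against 183 CPM in library 1 and 270 against 276 CPM in library 2. Lyz2 was higher with 2 Aire UMIs in both libraries (1225 against 144 CPM and 1496 against 309 CPM), and so were S100a8 (747 against 270 CPM and 893 against 583 CPM) and Cd40 (110 against 57.9 CPM and 131 against 78.7 CPM). Krt5 was lower in both (197 against 691 CPM and 151 against 281 CPM). Cd80 was at 25.8 against 31.8 CPM and 51.6 against 39.4 CPM. Ccl21a was lower inside the edge in library 1 (487 against 2401 CPM) and higher in library 2 (1492 against 843 CPM). Cells with 1 and with 2 UMIs of the division genes, the other edge, had Csn2 at 1104 and 969 CPM in library 1 and at 891 and 392 CPM in library 2.

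**Figure D5:**
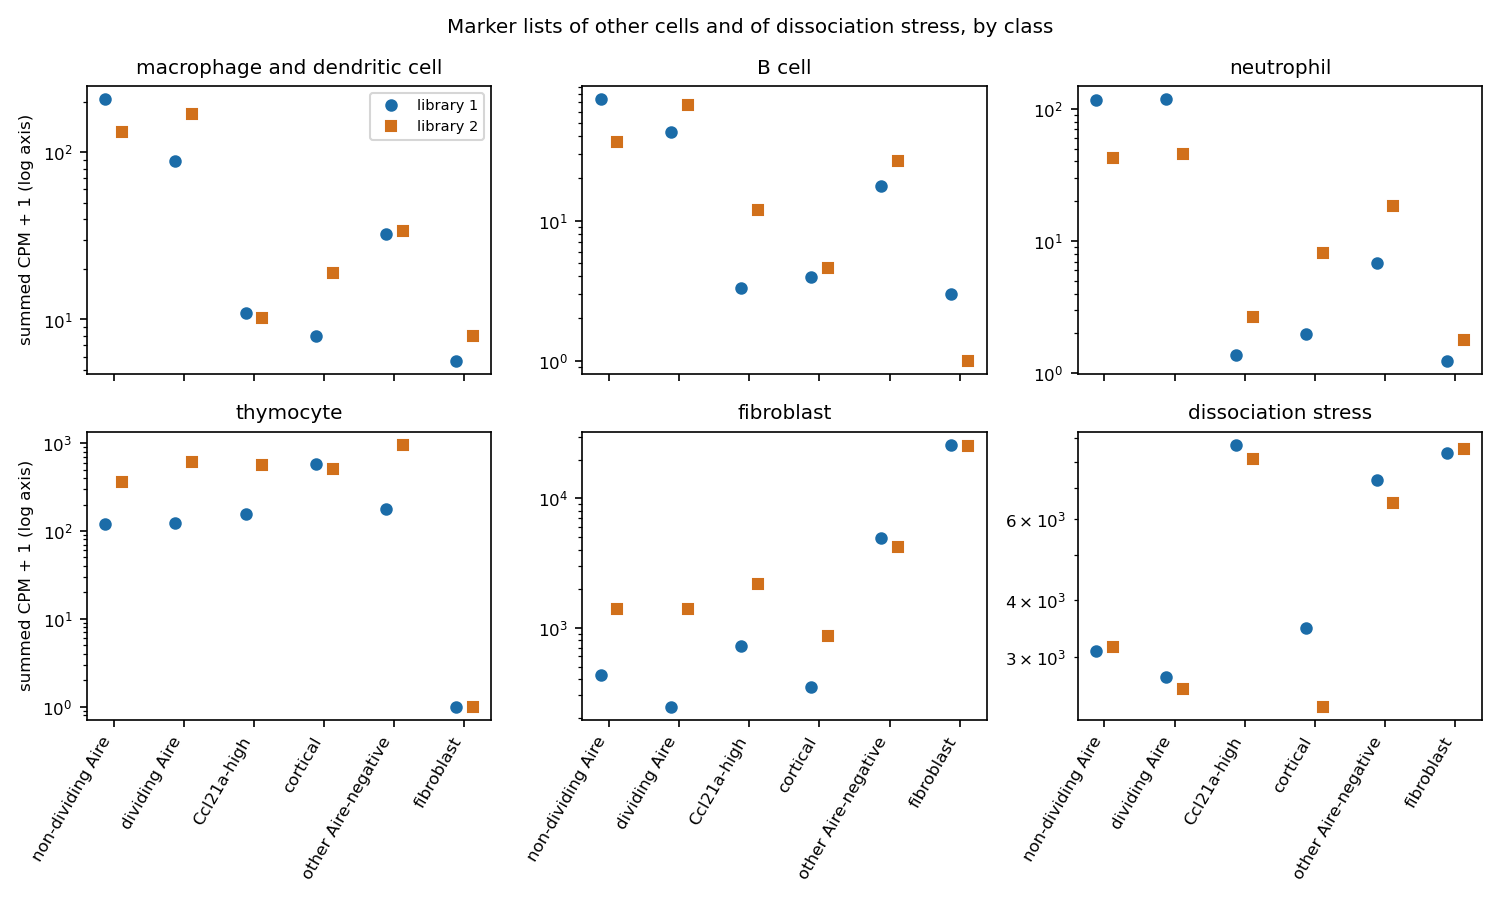
Summed CPM plus 1 (log axis) of marker lists of other cells and of dissociation stress in 6 classes, 1 point for each library. Fibroblasts are at 0 for thymocyte markers by their gate. Macrophage and dendritic cell markers are at 207 and 131 CPM in the members and at 9.88 and 9.16 CPM in Ccl21a-high cells, while the stress list is at 3098 and 3151 CPM against 8697 and 8125 CPM.

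Markers of the mimetic cells, epithelial cells of the medulla that resemble cells of other tissues, were also found in the members. Cdx1, a gut transcription factor, stood at 180 and 149 CPM against 3.42 and 2.50 CPM in Ccl21a-high cells (5.94, SE 0.217, adjusted p = 1.3e-05), and Insm1, an endocrine factor, at 138 and 108 CPM against 5.32 and 4.995 CPM (4.80, SE 0.225). Both were chosen after their values were seen. All 5 tested muscle genes and all 4 tested gut and liver genes were higher, 3 of 4 neuroendocrine, 3 of 5 microfold and 1 of 4 ciliated genes. Of 10 keratinocyte genes 4 were higher and 0 lower. Of 10 tuft genes 3 were higher, among them Pou2f3 (12.3 and 12.4 CPM against 0.380 and 3.33 CPM, 3.34), and 1 was lower, and Trpm5, Il25 and Alox5ap were at 0 in members of library 2. Over all genes 25.1% were called higher, so the tuft and ciliated counts lay near that share. Tuft genes summed to 229 and 122 CPM in members, 1426 and 1005 CPM in the remaining epithelium without Aire and 532 and 560.5 CPM in fibroblasts. Ciliated genes summed to 45.3 and 53.7 CPM in members and 196 and 202 CPM in fibroblasts. Against dividing Aire-expressing cells 0 of these genes were higher and 1, the ciliary Dynlrb2, was lower (0 and 1.65 CPM against 48.4 and 49.4 CPM). Fibroblast markers summed to 432 and 1401 CPM in members and 723 and 2183 CPM in Ccl21a-high cells, higher in library 2 for each class.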

How the data were processed

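Raw UMI counts per gene and barcode were deposited by the authors for 2 libraries of E2F_M11 thymic stroma, with 32285 features each and no normalisation. The software given inside the matrices, per the file headers, is Cell Ranger 6.0.0, whereas Cell Ranger 7 is listed with Seurat 4 and mm10 in the submitters' processing notes. Libraries held 41075328 and 42583831 UMIs in 5110 and 19163 barcodes. Cells past the filters had a median of 8727 and 1874 UMIs. Of 30 barcodes that the libraries shared, 0 were members in both libraries. A further 23 barcodes in each library met the gene rule outside the filters, 22 of them over the mitochondrial limit.

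The members and gene lists were chosen with earlier results of these data known. Ccl21a-high cells had at least 5 Ccl21a UMIs making up at least 0.5% of UMIs and under 3 UMIs of the cortical genes. Cortical cells had at least 3 UMIs of Psmb11, Prss16 and Ccl25, with at least 1 of Psmb11. Both classes had at most 1 UMI of the division genes. Fibroblasts, the background for shares, had no UMI of Aire, the epithelial genes or the thymocyte list and at least 5 of Col1a1, Col1a2, Dcn and Pdgfra. Counts were summed over 2 libraries and 5 epithelial classes (10 sums) and fitted with edgeR 4.0.16 (R 4.3.3; TMM scaling, filterByExpr by class, quasi-likelihood test) with library as a blocking term, which the design allows because all classes come from both libraries. It used 14435 genes and left 4 residual degrees of freedom, and the biological coefficient of variation was 0.209. Deviations of same-library sums correlated at 0.00428 to 0.245 over 10 pairs. The 17 gate genes were not tested. Adjusted p-values in the report are from this fit. SE is on the log2 scale. Where the other class had 0 counts, the fold is a lower bound at 3 counts over the group. Named genes were the markers and Foxn1, the 3 highest of each list in members, the called genes of largest fold in each list (up to 2 in each direction) and the 8 largest in each direction over genes at 10 CPM or more. Some further listed genes were named after their values were seen, among them Pyy, Sst, Apoa4, Cd86, Trp63, E2f2, Kitl, Cd274, Ly75, Cdx1 and Insm1. Cells were thinned with Python 3.11.15 and numpy 2.4.6. The test was tested on simulated data. Alternatives covered scaling, filters, gates, thinning, DESeq2 1.42.0 and other-lineage cells. Gene positions are from GENCODE vM21 (GRCm38). Some listed genes are not reported here by name.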

Additional observations from a re-analysis of the deposited data

How the results depend on the processing

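The count against dividing cells, 195, was 558 with no low-count filter, 41 with no replicate block (the library term), 305 by DESeq2, 11 with cells thinned to 1000 UMIs, 89 without cells with at least 2 UMIs of another lineage, and 389 without cells with a macrophage or dendritic cell UMI, an alternative chosen after seeing the data. Thinning left 1176 calls against Ccl21a-high and 886 against cortical cells, and leaving out other-lineage cells 1072 and 1058. These alternatives have fewer cells or UMIs. With no replicate block the counts were 4932 and 4309. The share of members, a mean of 3.715% over libraries, was 6.718% without other-lineage cells and 0.5177% with thinned gates, and ran from 1.771% to 5.658% when a library was left out. Leaving out other-lineage cells cut the cells past the filters from 3588 and 8186 to 436 and 423, and members to 39 and 19. The 6.718% is thus a share of a different set of cells. Genes per member, 592.5, were 599.2 under stricter filters, 575.5 without other-lineage cells and 704.0 without Malat1, Gm42418, mitochondrial and ribosomal protein genes (chosen after seeing the data), and 592 to 593 when a library was left out. Leaving out a library leaves no residual degrees of freedom for the gene tests, so only values within each library can be given. Single genes turned in sign for Scn1a against Ccl21a-high cells (0.55) and Cdkn1a against cortical cells (-0.58), both without other-lineage cells, and for Ly6a against cortical cells (1.494 thinned, 2.606 without other-lineage and 1.317 without macrophage UMIs); the cause was not tested. Of the other values under alternatives that keep both libraries, 2998 stayed on their side of the threshold or within their range, 45 became calls and 208 lost theirs. The scaling by relative log expression moved the median of all genes by under 0.1 in each comparison. Other settings moved it more: from 0.149 to between -0.045 and 0.27 against Ccl21a-high cells, and from 0.226 to between 0.079 and 0.678 against cortical cells. Depth limits library 2, whose median member had 4364 UMIs.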
